A study of Mus musculus with 2 samples.

Results

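The expression of 9 genes of the SMAD branch of TGF-β signaling was examined in Tregs of the spleen and of the BLM-injured lung. The genes were taken by symbol and were all present among the 24346 symbols of both libraries. They encode the SMAD proteins Smad2, Smad3, Smad4 and Smad7, the corepressors Ski, Skil and Tgif1, and the ubiquitin ligases Smurf1 and Smurf2. The libraries came from Foxp3-DTR-GFP (FDG) mice, in which GFP is under the endogenous Foxp3 locus, so that GFP+CD4+ cells are CD4 T cells with an active Foxp3 gene, which encodes the lineage factor of Tregs. All mice had received BLM, which the methods give as 50 μg by the intratracheal route at 10 to 16 weeks of age, and cells were sorted on day 15. For each tissue, 1 library was made from the pooled cells of 3 mice, and there was no library of untreated mice or of GFP-negative T cells. With 1 library per tissue no difference had a replicate check and no p-value was computed, so every statement below compares these libraries and not the tissues in general.

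TGF-β binds a receptor kinase that phosphorylates Smad2 and Smad3, and these assemble with Smad4, enter the nucleus and bind DNA. Smad7 is induced by the pathway and blocks the receptor, partly by bringing in Smurf1 or Smurf2, which mark receptors and SMAD proteins for degradation. Ski, Skil (also called SnoN) and Tgif1 bind the SMAD complex on DNA and recruit histone deacetylases, which keeps target genes low. In T cells the pathway helps to induce Foxp3, through SMAD binding at an enhancer of that gene, and the integrin Itgae.

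Foxp3 was listed at 18.7 FPKM (a read number divided by exon length and by the size of the library) in the splenic and at 41.8 FPKM in the lung library, and Cd4 at 195 and 179 FPKM. The 10 genes of a T cell list were all within 2-fold between the libraries, and their median log2 ratio of lung over spleen was -0.066. Of 6 Treg genes, 3 had an over 2-fold higher lung value and none was over 2-fold lower, with a median log2 ratio of 1.01, and Il2ra was at 89.4 and 59.1 FPKM. RNA of other cells was present in both libraries. The summed FPKM of 12 macrophage genes were 680.3 in spleen and 27271 in lung, those of 8 fibroblast genes 0.290 and 163, those of 8 epithelial genes 11.0 and 3135, those of 4 neutrophil genes 405 and 1167, those of 6 endothelial genes 55.4 and 40.8, and those of 6 B cell genes 245 and 126. The macrophage sum was mostly Lyz2 (376 and 24947 FPKM), and the median log2 ratio of the 12 genes was 2.14. Of these, Adgre1 (14.6 and 24.3 FPKM), Csf1r (43.8 and 50.1 FPKM) and Mrc1 (7.64 and 9.41 FPKM) were within 2-fold. The endothelial sum was mostly Pecam1 (54.8 and 31.7 FPKM), which leukocytes also express, whereas Cldn5 was at 0.160 and 6.54 FPKM. The epithelial sum in lung was mostly Scgb1a1 (1.48 FPKM in spleen and 3021 FPKM in lung). In spleen it was mostly Epcam, which was lower in lung (8.75 and 1.79 FPKM), whereas the other 7 epithelial genes were higher. In spleen, 5 fibroblast markers (Col3a1, Lum, Pdgfra, Pdgfrb and Mgp) and 3 epithelial markers (Sftpc, Sftpb and Krt8) were listed at 0, whereas none of the 12 macrophage markers was at 0 in either library. The part of these cells in the values of the 9 genes was not tested, and more RNA per cell cannot be told apart from more cells of a type. Over genes with a known transcript length, low FPKM gave the worth of 1 read and with it an estimate of 9647269 reads for the spleen and 12631702 for the lung. Intervals below are 95% intervals of counting error on reads estimated in this way. They do not cover the variation between mice or the copies made by PCR.

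Tgif1 stood apart from the other genes by its level in both libraries and by its ratio. Tgif1 encodes a homeodomain protein that recruits histone deacetylases to Smad2 and Smad3. It was listed at 61.2 FPKM in spleen (interval 57.1 to 65.4, about 843 reads) and at 198 FPKM in lung (191 to 206, about 3106 reads), a 3.24-fold higher value in the lung library and a log2 ratio of 1.70 (1.59 to 1.81). Among all symbols it ranked 1676 by FPKM in spleen and 623 in lung. In the GENCODE M21 annotation of GRCm38 (mm10) the gene spans bases 70844205 to 70853546 of chromosome 17, minus strand. RefSeq lists 5 transcription starts for it, and one FPKM per gene does not show which was used.

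The DNA before the starts is shown for Tgif1 and Smad3, the genes with over 2-fold ratios whose upstream windows were at hand. Windows of 250 bases before a RefSeq start were found for 5 of the 9 genes (Ski, Smad3, Smurf1, Smurf2 and Tgif1), 9 windows in all. The first window lies before the most upstream RefSeq start of Tgif1, at chr17:70853533-70853782 on the minus strand. Its last bases fall inside the GENCODE span given above, which reaches 70853546, because the annotations place the start differently. The second window lies before the Smad3 start, at chr9:63757995-63758244 on the minus strand (RefSeq, GRCm38.p6). Capitals mark matches on either strand to the SMAD box CAGAC or to TGTCA, the core site of the TGIF homeodomain.
Tgif1: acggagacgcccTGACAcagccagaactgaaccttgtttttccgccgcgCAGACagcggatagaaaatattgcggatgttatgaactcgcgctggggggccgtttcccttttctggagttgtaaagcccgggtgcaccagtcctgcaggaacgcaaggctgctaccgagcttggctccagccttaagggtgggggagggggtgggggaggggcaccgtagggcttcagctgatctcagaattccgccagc
Smad3: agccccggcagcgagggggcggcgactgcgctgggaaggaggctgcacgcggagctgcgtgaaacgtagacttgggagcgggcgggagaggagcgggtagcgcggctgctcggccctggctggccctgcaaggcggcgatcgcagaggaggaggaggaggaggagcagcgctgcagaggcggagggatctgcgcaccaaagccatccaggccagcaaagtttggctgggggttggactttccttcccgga

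The Tgif1 window held 1 SMAD box, whose first base lies 201 bases before the start, and 1 TGIF site 238 bases before it. The Smad3 window held neither. Tgif1 had 5 of the 9 windows, 1 for each of its starts, and Ski, Smad3, Smurf1 and Smurf2 had 1 each. Of the 9 windows, 5 held a SMAD box and 3 a TGIF site, and all 3 of the latter belonged to Tgif1. Both motifs are short and common, as 42.2% of the 32817 windows of this length in the RefSeq table held a SMAD box and 39.9% a TGIF site. The 8-base palindrome GTCTAGAC, to which SMAD proteins also bind, was in 0 of the 9 windows and in 0.168% of all. These matches describe letters only and do not show binding. The printed bases were rich in G and C, with 59.6% in the Tgif1 window and 69.2% in the Smad3 window. These windows held 15 and 22 CpG sites.

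The 4 SMAD genes of the group were each listed lower in lung than in spleen, as were 48.5% of all genes in the background. For Smad2 the difference was not beyond counting error in the deposited FPKM. Outside the group, Smad1 was also lower in lung, whereas Smad5 was higher (5.46 FPKM in spleen and 6.83 FPKM in lung). Smad4, the partner shared by Smad2 and Smad3, was at 33.9 FPKM in spleen (31.96 to 35.97) and 16.03 FPKM in lung (14.8 to 17.4), 2.12-fold lower, with a log2 ratio of -1.08 (-1.23 to -0.94). Smad3, a DNA-binding effector of the pathway, was at 11.1 FPKM in spleen (10.2 to 12.1) and 5.41 FPKM in lung (4.83 to 6.05), 2.06-fold lower, with a log2 ratio of -1.04 (-1.25 to -0.84). For both genes the counting intervals of the libraries did not overlap, but the interval of each ratio reached past -1, so being over 2-fold was not settled by the depth.

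Smad2, the other receptor-activated SMAD of the TGF-β branch, was at 12.4 FPKM in spleen (11.0 to 13.9) and 11.1 FPKM in lung (9.83 to 12.4). In the deposited FPKM its log2 ratio of -0.16 (-0.40 to 0.08) was not different from 0 beyond counting error. It became -0.59 when both libraries were rescaled to an equal sum of FPKM (TPM). The inhibitory SMAD gene Smad7 was at 9.41 FPKM in spleen (8.51 to 10.4) and 6.64 FPKM in lung (5.93 to 7.41), a log2 ratio of -0.50 (-0.72 to -0.29). Smad2 was thus 1.11 times Smad3 in spleen and 2.05 times Smad3 in lung. The summed FPKM of the 4 SMAD genes were 66.8 in spleen and 39.2 in lung. Smad2, Smad4 and Smad7 lie within 2.67 Mb of each other on chromosome 18, and Smad3 lies on the minus strand of chromosome 9 from 63646767 to 63757994.

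The corepressor genes did not share one direction. Skil, which is itself induced by TGF-β and whose protein is degraded when the pathway is active, was at 19.0 FPKM in spleen (17.96 to 20.1) and 30.0 FPKM in lung (28.8 to 31.2), 1.58-fold higher, with a log2 ratio of 0.66 (0.56 to 0.76). Ski, its closest relative and a partner of Smad4, was at 11.0 FPKM in spleen (10.2 to 11.9) and 9.28 FPKM in lung (8.53 to 10.1), a log2 ratio of -0.25 (-0.42 to -0.08). Within a library, Skil exceeded Ski 1.72-fold in spleen and 3.23-fold in lung. Skil lies on the plus strand of chromosome 3 from 31095058 to 31122577, and Ski on the minus strand of chromosome 4 from 155154075 to 155222592. The summed FPKM of the 3 corepressor genes were 91.2 in spleen and 238 in lung, of which Tgif1 held most.

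Both ubiquitin ligase genes were within 1.5-fold between the libraries. Smurf1 was at 10.6 FPKM in spleen (9.62 to 11.7) and 13.2 FPKM in lung (12.1 to 14.3), a log2 ratio of 0.31 (0.13 to 0.49), which became -0.12 when both libraries were rescaled to TPM, that is to an equal sum of FPKM. Smurf2 was at 8.92 FPKM in spleen (7.90 to 10.1) and 8.09 FPKM in lung (7.17 to 9.11), with a log2 ratio of -0.14 (-0.39 to 0.11). The counting intervals of Smurf2 overlapped between the libraries. Smurf1 lies on the minus strand of chromosome 5 from 144876495 to 144965847, and Smurf2 on the minus strand of chromosome 11 from 106820066 to 106920715.

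**Figure D1:**
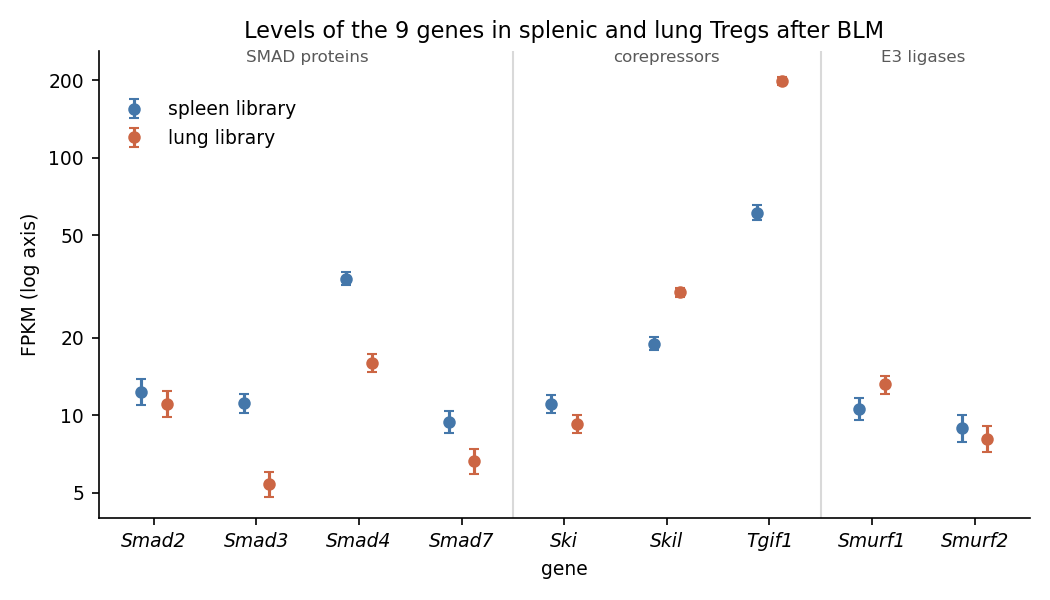
FPKM (log axis) of each of the 9 genes in the splenic and the lung library. Points are the deposited values and bars the 95% counting intervals of estimated reads, with 1 library per tissue. Tgif1 is the highest gene in both libraries, at 61.2 and 198 FPKM, and Smad3 and Smad4 are the genes lower in lung by over 2-fold.

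By level, Tgif1, Smad4 and Skil led in spleen, and Tgif1, Skil and Smad4 in lung, with Skil and Smad4 in the opposite order. These 3 genes were separated from each other, and from the next gene down, by intervals that did not overlap in either library. Below them, from Smad2 at 12.4 FPKM to Smurf2 at 8.92 FPKM in spleen, and from Smurf1 at 13.2 FPKM to Smad3 at 5.41 FPKM in lung, each gene's interval overlapped that of its neighbour in the order. Smad3 was the fifth gene in spleen and the ninth in lung.

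Ratios between genes of the same library do not depend on how the libraries were scaled to each other. Tgif1 was 1.80 times Smad4 in spleen and 12.4 times Smad4 in lung, and 5.49 times and 36.7 times Smad3. These pairs set the gene with the highest log2 ratio against those with the lowest. Against Smad2, Tgif1 was 4.95 times in spleen and 17.9 times in lung. Skil was 0.560 times Smad4 in spleen and 1.87 times in lung. The sum of the 3 corepressor genes was 1.59 times that of Smad2, Smad3 and Smad4 in spleen and 7.31 times in lung. Without Tgif1, the sum of Ski and Skil was 0.523 times the same SMAD sum in spleen and 1.21 times in lung. Tgif1 made up 34.4% of the summed FPKM of the 9 genes in spleen and 66.6% in lung, and Smad4 made up 19.1% and 5.38%.

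**Figure D2:**
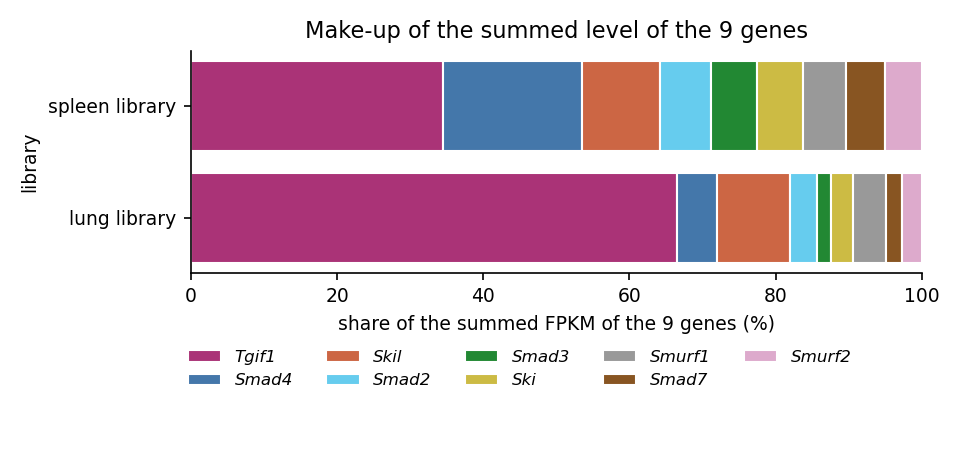
Share (%) of each gene in the summed FPKM of the 9 genes, with 1 bar for each library. Tgif1 takes 34.4% of the splenic and 66.6% of the lung bar, and the share of Smad4 goes from 19.1% to 5.38%.

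Of the 9 genes, 1 (Tgif1) was over 2-fold higher in lung, or 11.1%, and 2 (Smad3 and Smad4) were over 2-fold lower, or 22.2%. Of all 12094 genes that reached 1 FPKM in at least one library, 17.8% were over 2-fold higher and 15.5% over 2-fold lower. At any size, 3 of the 9 genes were higher and 6 lower, against 51.5% and 48.5% of all genes. Over 1.5-fold, 2 were higher (Tgif1 and Skil) and 2 lower (Smad3 and Smad4), against 27.4% and 25.4%, and over 4-fold there was 0 in either direction, against 10% and 7%. The shares of the 9 genes lay near these backgrounds, so the counts by themselves set the group apart in neither direction. The median log2 ratio of the 9 genes was -0.16, against 0.03 for all genes. By log2 ratio, Tgif1 ranked 1398 from the highest of the 12094 genes, and Smad4 and Smad3 ranked 1739 and 1808 from the lowest.

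Ratios were less spread among highly expressed genes, so the genes were also set beside others of their level, in bands of geometric mean FPKM chosen after the values had been seen. At 50 to 200 FPKM, the band of Tgif1, 9.5% of 1600 genes had an over 2-fold higher lung value and 1.56% were over 2-fold lower. At 15 to 50 FPKM, the band of Smad4 and Skil, 7% of 3041 genes were over 2-fold higher and 6.41% over 2-fold lower. At 5 to 15 FPKM, which holds the other 6 genes, 11.2% of 3012 genes were over 2-fold higher and 14.8% over 2-fold lower.

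**Figure D3:**
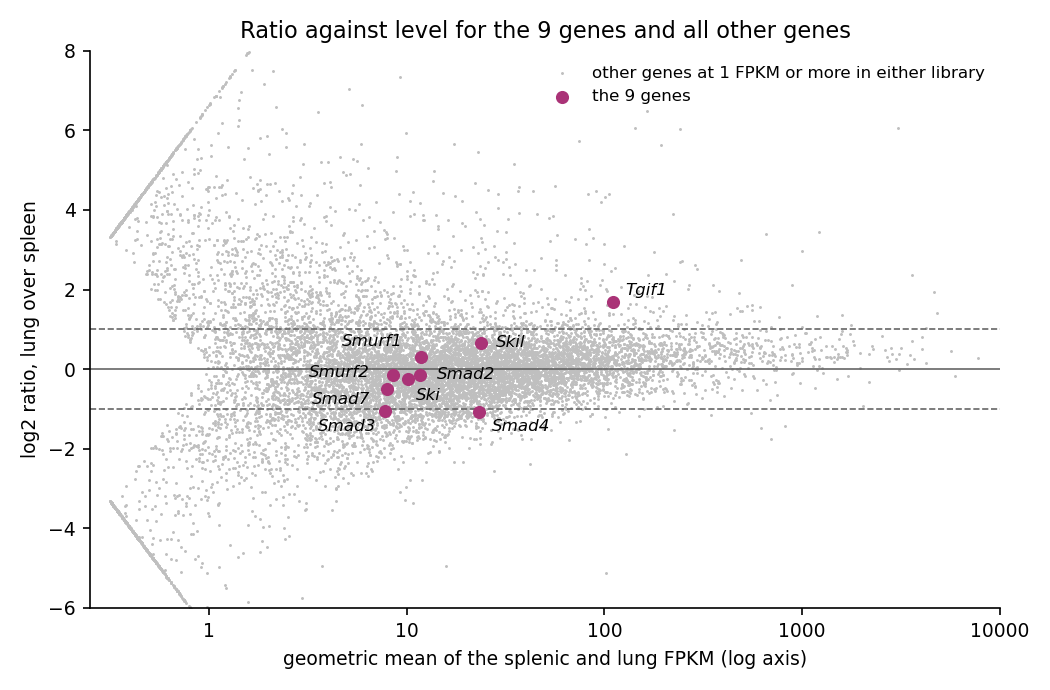
Log2 ratio of lung over spleen, with FPKM under 0.1 set to 0.1, against the geometric mean FPKM of the libraries (log axis) for genes that reached 1 FPKM in at least one library. Dashed lines mark 2-fold, grey points are other genes (139 of 12094 lie outside the axes) and colored points the 9 genes. Tgif1 lies above the 2-fold line at a high level, and Smad3 and Smad4 lie just below the lower line.

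The direction of 8 of the 9 genes was the same under every scaling, floor and pseudocount tried, the exception being Smurf1. Rescaling to TPM lowered the log2 ratios of all genes above the floor by 0.43, which made Tgif1 1.27, Skil 0.23, Smad3 -1.47 and Smad4 -1.51. Scaling the libraries to a median ratio of 1 for the T cell list made Smad3 -0.98, and a pseudocount of 1 FPKM made it -0.92, so that it was then under 2-fold lower. Smad4 and Tgif1 stayed over 2-fold in all of these settings.

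**Figure D4:**
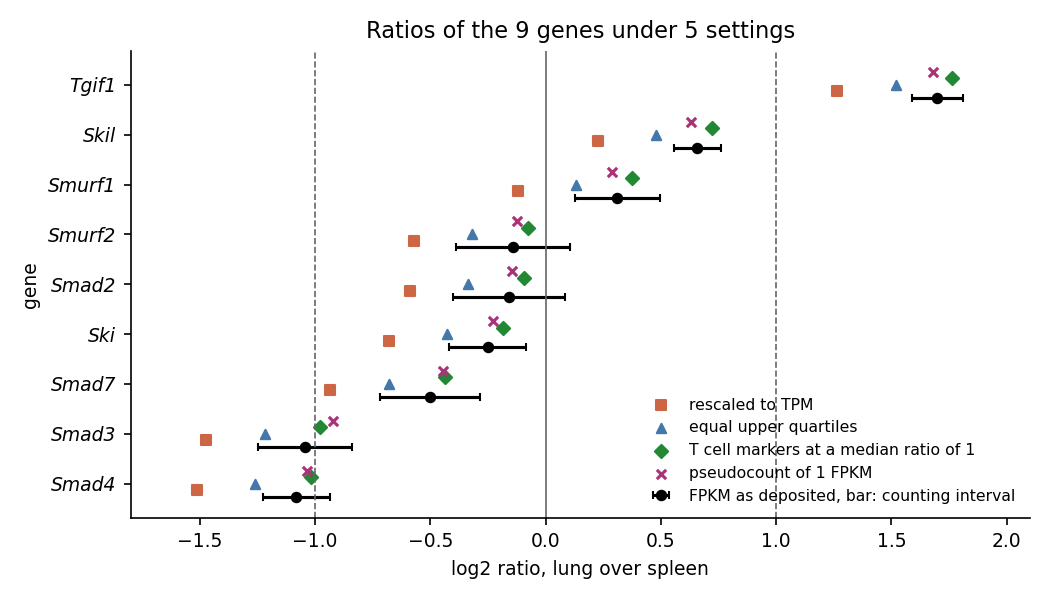
Log2 ratio of lung over spleen of each gene under 5 settings. Black points and bars are the deposited FPKM with their 95% counting intervals, and the other symbols are TPM, equal upper quartiles, T cell markers at a median ratio of 1 and a pseudocount of 1 FPKM. The order of the genes is the same in all 5, and the TPM values lie 0.43 lower than those of the deposited FPKM.

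Other genes of the pathway were described by 6 lists holding 55 genes, of which 47 reached 1 FPKM in either library. Of these 47, 11 were over 2-fold higher in lung, 4 over 2-fold lower and 32 within 2-fold, with a median log2 ratio of -0.17. These were 23.4% higher and 8.51% lower, against 17.8% and 15.5% of all genes, and the counts of each list below have the same background. Of the 11 higher genes, 5 were among the 6 TGF-β induced genes and 3 among the 17 other regulators. Eng, Mecom, Ctgf and Cdkn2b, all among the 11, reached 1 FPKM in lung only. Acvr1b, among the 4 lower genes, reached it in spleen only.

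Among the SMAD genes of the BMP branch, Smad1 was the highest, at 14.2 FPKM in spleen and 10.03 FPKM in lung. Smad5, the other gene of this list that reached 1 FPKM, was higher in lung, at 5.46 and 6.83 FPKM. Neither of these 2 genes was over 2-fold. Of 7 ligand and receptor genes, 1 was over 2-fold higher and 2 over 2-fold lower. Tgfbr2, the TGF-β type II receptor, was the most abundant of them and nearly equal in both libraries, at 57.5 FPKM in spleen and 56.9 FPKM in lung. Acvr1b, an activin type I receptor, was at 1.51 FPKM in spleen and 0.0277 FPKM in lung. Tgfbr3, a coreceptor, was at 4.82 and 1.44 FPKM, and Eng, a coreceptor abundant in endothelium, at 0.559 and 2.98 FPKM.

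Of 11 other corepressor genes, 2 were over 2-fold higher, 1 over 2-fold lower and 8 within 2-fold, with a median log2 ratio of -0.28. The histone deacetylase gene Hdac1 was the highest, at 180.0 FPKM in spleen and 142 FPKM in lung, whereas Hdac2 was at 79.5 and 28.9 FPKM, a log2 ratio of -1.46. Ctbp2, a corepressor to which Tgif1 can bind, was at 1.36 FPKM in spleen and 6.22 FPKM in lung. Ctbp1, the other CtBP gene of the list, was more abundant and went the other way. It was at 76.1 FPKM in spleen and 43.5 FPKM in lung, a log2 ratio of -0.81. Mecom was listed at 0 in spleen and at 1.86 FPKM in lung. All 4 coactivator genes were lower in lung at any size, against 48.5% of all genes, with a median log2 ratio of -0.79. Only 1 of them, Ep300, was over 2-fold lower. Ncoa3 was the highest, at 55.5 FPKM in spleen and 34.5 FPKM in lung. Ep300, the acetyltransferase whose place at the SMAD complex the corepressors take, was at 12.95 and 5.76 FPKM, a log2 ratio of -1.17.

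Of 17 other regulators of SMAD turnover or of access to the receptor, 14 were within 2-fold, with a median log2 ratio of -0.12, and 3 were over 2-fold higher in lung. Stub1, a ubiquitin ligase, was the highest, at 97.4 FPKM in spleen and 95.9 FPKM in lung. The 3 higher genes encode membrane proteins that restrain the pathway. Pmepa1 and Ldlrad4 keep SMAD proteins from the receptor. Pmepa1 was at 4.55 FPKM in spleen and 14.6 FPKM in lung. Ldlrad4 was at 16.7 and 57.7 FPKM. Bambi, a decoy receptor, was at 1.46 and 4.99 FPKM. The log2 ratios of these genes were 1.68, 1.79 and 1.78. A count of 3 in 17 is near the 17.8% of all genes that were over 2-fold higher, so it does not set the list apart. Smad7, an inhibitor that the pathway induces, was lower in lung.

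The genes of the sixth list are induced by TGF-β in many cell types. Like the other lists, it was chosen with earlier results of these data known. Of the 6 genes that reached 1 FPKM, 5 were over 2-fold higher in lung and none lower, and the median log2 ratio was 3.20. Ctgf and Cdkn2b reached 1 FPKM in lung only, so they entered this count and median through the library where they are high. Cdkn1a, an inhibitor of the cell cycle, was at 3.29 FPKM in spleen and 70.7 FPKM in lung. Tgfbi, a matrix protein, was at 5.70 and 68.8 FPKM, and Cdkn2b, another cell cycle inhibitor, at 0.570 and 4.02 FPKM. Ctgf, a matricellular protein, was listed at 0 in spleen and at 3.06 FPKM in lung. Junb, an AP-1 subunit and the highest of the list, was at 671 and 959 FPKM. Itgae, an integrin chain of lymphocytes and dendritic cells, was named after its values had been seen, and was at 10.8 FPKM in spleen and 55.4 FPKM in lung. Macrophages and fibroblasts express several of these genes, and their markers were higher in the same library. The 12 macrophage genes were all higher in lung, and 9 of them over 2-fold. The part of other cells in this list was not tested.

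**Figure D5:**
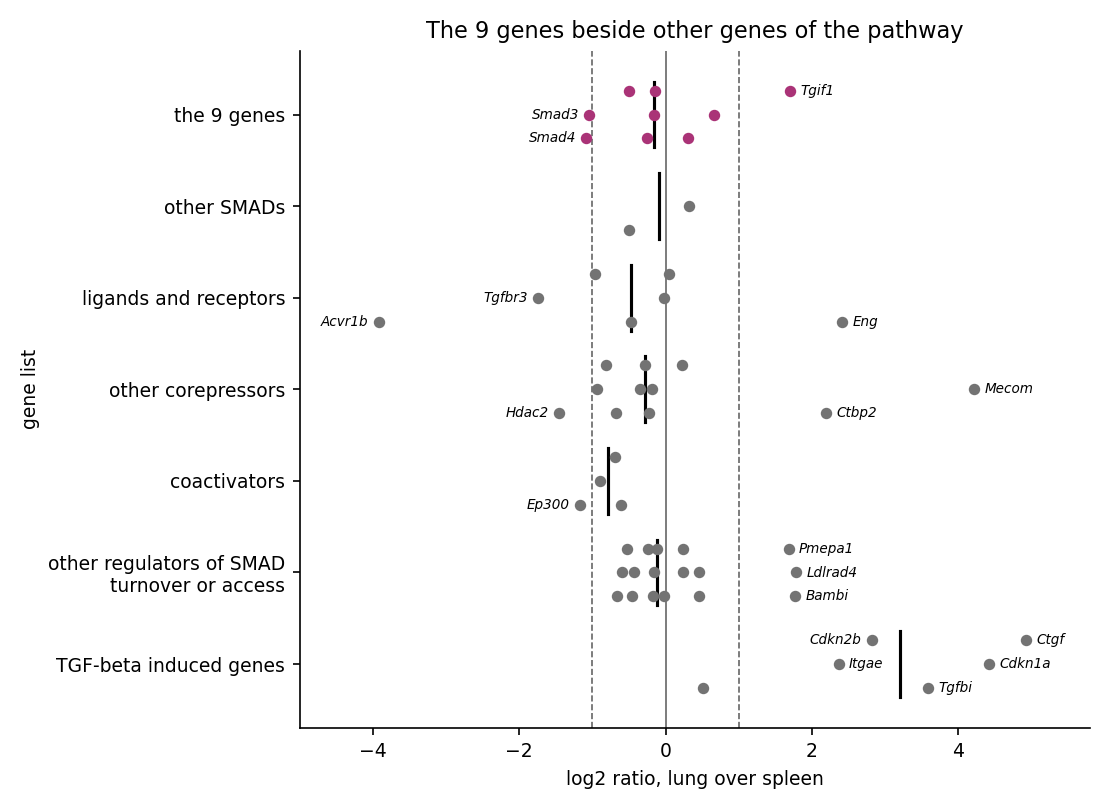
Log2 ratio of lung over spleen for the 9 genes and for genes of 6 pathway lists that reached 1 FPKM in at least one library, with FPKM under 0.1 set to 0.1 (Acvr1b in lung, Mecom and Ctgf in spleen). Each point is a gene, short vertical lines are medians, dashed lines mark 2-fold and genes beyond them are named. The list of TGF-β induced genes lies farthest to the right, with a median of 3.20.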

How the data were processed

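GFP+CD4+ cells of FDG mice were sequenced as 1 library for each tissue from full-length SMART-Seq HT cDNA. Reads of 75 bases from one end were aligned by the authors to the mm10 genome (TopHat 2.1.1 with Bowtie2 2.2.8, SAMtools 0.1.18 for file handling). The deposited values are FPKM calculated in Cuffdiff 2.2.1. The annotation, the strand setting and any scaling between libraries are not given in the sources used here.

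Ratios of lung over spleen were computed from FPKM after setting values under 0.1 to 0.1. The background was all genes that reached 1 FPKM in at least one library. Reads were estimated from GENCODE M21 transcripts tied to RefSeq, with their median length per gene and fragments of 200 ± 80 (mean and SD, at least 75) bases. FPKM times effective length should be a multiple of what 1 read is worth, which was taken as the commonest such product over single-length genes of at least 1500 nt. Of low genes, 74.6% in spleen and 76.9% in lung then fell within 0.1 of a whole read. Read numbers of genes with several transcripts (Smad2, Skil, Tgif1 and Smurf1) are approximate. Intervals are exact Poisson for levels and exact Clopper-Pearson for ratios. No member shared exon sequence with another gene of the files.

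From each pathway list, the gene at the highest FPKM and up to 4 genes over 2-fold were named. Itgae, Ctbp1 and Smad5 were added after their values had been seen. The members and lists were chosen with earlier results of these data known. The read calibration and the fold calls were tested on simulated reads. These were drawn with the same transcript lengths and fragment model, so the test does not cover how well these match the libraries. Calculations used Python 3.11.15 (scipy 1.17.1, numpy 2.4.6, pandas 2.3.3) and plots matplotlib 3.10.9.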

Additional observations from a re-analysis of the deposited data

How the results depend on the processing

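Besides the floor of 0.1 FPKM, the settings tried were lower and higher floors (0.01 and 1 FPKM), a pseudocount of 0.1 or 1 FPKM, 4 scalings and a filter for 1 FPKM in both libraries, and TPM without transcripts under 200 nt was added after the values had been seen. Tgif1 was the 1 gene over 2-fold higher in each of these 10 settings, at log2 ratios of 1.25 to 1.76, and Smad4 ranged from -1.53 to -1.02. The number of genes over 2-fold lower became 1 with a pseudocount of 1 FPKM and with T cell markers at a median ratio of 1, when Smad3 fell short. Over 1.5-fold, 2 genes (Tgif1 and Skil) were higher, and over 4-fold 0 were higher and 0 lower. The median log2 ratio of -0.16 became -0.59 with TPM and -0.60 with TPM without short transcripts, because these settings lower all ratios. Smurf1 was above 0 in 8 settings and below 0 in both TPM settings. No paired analysis was possible because each tissue had 1 library. With 1 pooled library per tissue, the variation between mice is unknown. Each gene rested on about 270 estimated reads or more per library. At this depth the counting intervals of the deposited FPKM ratios included 2-fold lower for Smad3 and Smad4 and no difference for Smad2 and Smurf2. With TPM the log2 ratios of Smad2 and Smurf2 were -0.59 and -0.57, below those intervals.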
